A study of Mus musculus with 11 samples.

Results

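Lipid droplets store triglyceride under a coat of proteins, and lipolysis is the stepwise release of fatty acids from that store. The 10 genes of the pathway described here are the lipases Pnpla2, Lipe and Mgll, the lipase coactivator Abhd5, the lipase inhibitors G0s2 and Hilpda, and the droplet coat genes Plin1, Plin2, Plin4 and Cidec. They were taken from the tables by gene name. All 10 were present in both deposited tables, as 10 of 46078 genes for adipose tissue and 10 of 54532 genes for the pancreas.

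In a fat cell at rest, the coat protein perilipin 1 holds the coactivator ABHD5 away from the first lipase. Adrenergic signalling through cAMP and protein kinase A phosphorylates perilipin 1 and hormone-sensitive lipase, and the released ABHD5 then activates adipose triglyceride lipase. Cells other than adipocytes, the acinar cells of the pancreas among them, store little triglyceride, and perilipin 2 is a widely expressed coat protein of droplets. Fatty acids freed from visceral fat are known to aggravate pancreatitis in obesity.

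The data are RNA sequencing counts of the pancreas (2 control and 3 OA-AP libraries) and of epididymal adipose tissue (3 control and 3 OA-AP libraries) of male C57BL/6J mice aged 16 weeks. OA-AP stands for obesity-related, alcohol-induced acute pancreatitis, and its libraries carry the label Model. The control group was fed on 10 kcal% fat over 12 weeks and was injected with saline. The OA-AP group was fed on 60 kcal% fat over the same time and was given ethanol at 2 g/kg in each of 2 intraperitoneal injections, 1 h apart. All mice were killed 12 h after the first injection. Diet and ethanol differed together between the groups, so their effects cannot be told apart. In bulk tissue, fewer cells of a type and less RNA per cell cannot be told apart either.

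The 3 lipases act in sequence. Pnpla2 (ENSMUSG00000025509, GRCm38 chr7:141455198-141460743, plus strand) encodes adipose triglyceride lipase, which removes the first fatty acid. Lipe (ENSMUSG00000003123, chr7:25379527-25398710, minus strand) encodes hormone-sensitive lipase, the main diglyceride lipase. Mgll (ENSMUSG00000033174, chr6:88724412-88828360, plus strand) encodes monoglyceride lipase, which completes the release and also degrades an endocannabinoid.

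Abhd5 (ENSMUSG00000032540, chr9:122351608-122381524, plus strand) encodes the coactivator of the first lipase. G0s2 (ENSMUSG00000009633, chr1:193272161-193273217, minus strand) encodes its main inhibitor in adipocytes, and Hilpda (ENSMUSG00000043421, chr6:29272488-29275446, plus strand) encodes an inhibitor that is induced by hypoxia and by fatty acids. Among the coat genes, Plin1 (ENSMUSG00000030546, chr7:79720218-79732903, minus strand) is largely restricted to adipocytes and steroid-producing cells. Plin2 (ENSMUSG00000028494, chr4:86648386-86670060, minus strand) is expressed widely, and its protein is stable only on droplets. Plin4 (ENSMUSG00000002831, chr17:56100591-56109803, minus strand) coats nascent droplets in adipocytes. Cidec (ENSMUSG00000030278, chr6:113424634-113435760, minus strand) encodes a droplet fusion protein that favours the single large droplet of white fat. These positions are those of the deposited pancreas table.

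Plin2, Hilpda and Abhd5 were the members called in both tissues, and their promoters are therefore shown first. The sequences are from RefSeq (GRCm38.p6), are written 5′ to 3′ on the strand of the gene, and stop before the annotated gene. Capitals mark GCGTG or its reverse complement CACGC, a form of the core bound by hypoxia-inducible factors.
Plin2 promoter, chr4:86670061-86670309, minus strand: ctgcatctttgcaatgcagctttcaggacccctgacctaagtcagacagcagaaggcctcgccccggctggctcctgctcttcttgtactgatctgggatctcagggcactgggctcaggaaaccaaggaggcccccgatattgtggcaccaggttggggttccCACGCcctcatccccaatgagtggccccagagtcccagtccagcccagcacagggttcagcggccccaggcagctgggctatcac
Hilpda promoter, chr6:29272238-29272487, plus strand: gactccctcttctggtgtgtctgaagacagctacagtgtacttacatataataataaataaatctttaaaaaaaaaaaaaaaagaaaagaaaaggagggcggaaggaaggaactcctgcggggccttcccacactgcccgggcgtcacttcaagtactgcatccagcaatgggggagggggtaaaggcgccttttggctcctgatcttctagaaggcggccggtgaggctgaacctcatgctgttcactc
Abhd5 promoter, chr9:122351366-122351607, plus strand: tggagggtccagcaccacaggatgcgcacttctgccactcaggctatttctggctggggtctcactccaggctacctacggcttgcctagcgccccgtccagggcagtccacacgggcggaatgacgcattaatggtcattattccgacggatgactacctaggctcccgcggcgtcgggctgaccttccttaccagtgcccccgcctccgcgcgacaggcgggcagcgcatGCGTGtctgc
The Plin2 and Abhd5 sequences each hold 1 such word, and the first Hilpda promoter holds none.

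RefSeq gives 14 start sites for the 10 members, and the 250 bases before each were searched on both strands. The other form of the hypoxia core, ACGTG, was in 4 of 14 member windows and in 16.6% of all 32851 windows of the same length. These windows belonged to Hilpda, Mgll and Lipe. The stretches of 30 bases around the word, in capitals, are shown because Hilpda had the largest fold change of the members in adipose tissue. In Lipe and in 1 Mgll window the word lies in the E-box CACGTG, which contains ACGTG on each strand.
Hilpda, chr6:29272571-29272600, plus strand, 43 to 39 bases before the start site at 29272626: gatggccagcggACGTGccccagggcgagc
Mgll, chr6:88724356-88724385, plus strand, 44 to 39 bases before the start site at 88724412: gggggccgggcaCACGTGgggccccggcgc
Mgll, chr6:88724534-88724563, plus strand, 158 to 154 bases before the start site at 88724704: ggtgctcggggaACGTGacagcggcgctcg
Lipe, chr7:25396125-25396154, minus strand, 155 to 150 bases before the start site at 25395987: aacagggacgacCACGTGagggggcggagg
GCGTG was in 8 of 14 member windows, from 7 of the 10 genes, and in 28.2% of all windows. CACGTG was in 2 of 14 and in 6.02% of all windows. The cAMP response element TGACGTCA was in none of the 14 and in 1.55% of all windows. The exact PPAR and RXR direct repeat and the exact glucocorticoid response element were also in none of the 14, and in 0.0335% and 0.00913% of all windows.

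Total counts ranged from 20825177 to 27928097 in the adipose and from 14188832 to 17238919 in the pancreas libraries, and levels are given as CPM, the count scaled to library size with TMM factors. The labelled tissues carried their markers. Acinar markers took 36.6% to 51.0% of the pancreas counts, and the summed level of 11 adipocyte markers was 34016 to 48502 CPM in the adipose libraries. The adipose control library 2 held acinar RNA, with 0.596% of its counts on acinar markers against at most 0.00158% in the other adipose libraries. The pancreas OA-AP library 3 stood apart in neutrophil markers, with a summed level of 106 CPM against 14.3 and 4.63 CPM in the other OA-AP libraries and 1.80 and 2.79 CPM in controls. The calls of the members within each tissue are given with and without these libraries. A differentially expressed gene (DEG) passed an edgeR adjusted p of 0.05 and changed at least 1.5-fold.

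In adipose tissue 4 of the 10 members were DEGs, against a background of 25.1% of 15839 tested genes. Hilpda, Plin2 and Abhd5 rose and Plin1 fell. The median log2 fold change of the 10 members was 0.32, and that of all tested genes was -0.01. The lipases Pnpla2, Lipe and Mgll were not DEGs. The plot of values by library shows each gene in both tissues.

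**Figure D1:**
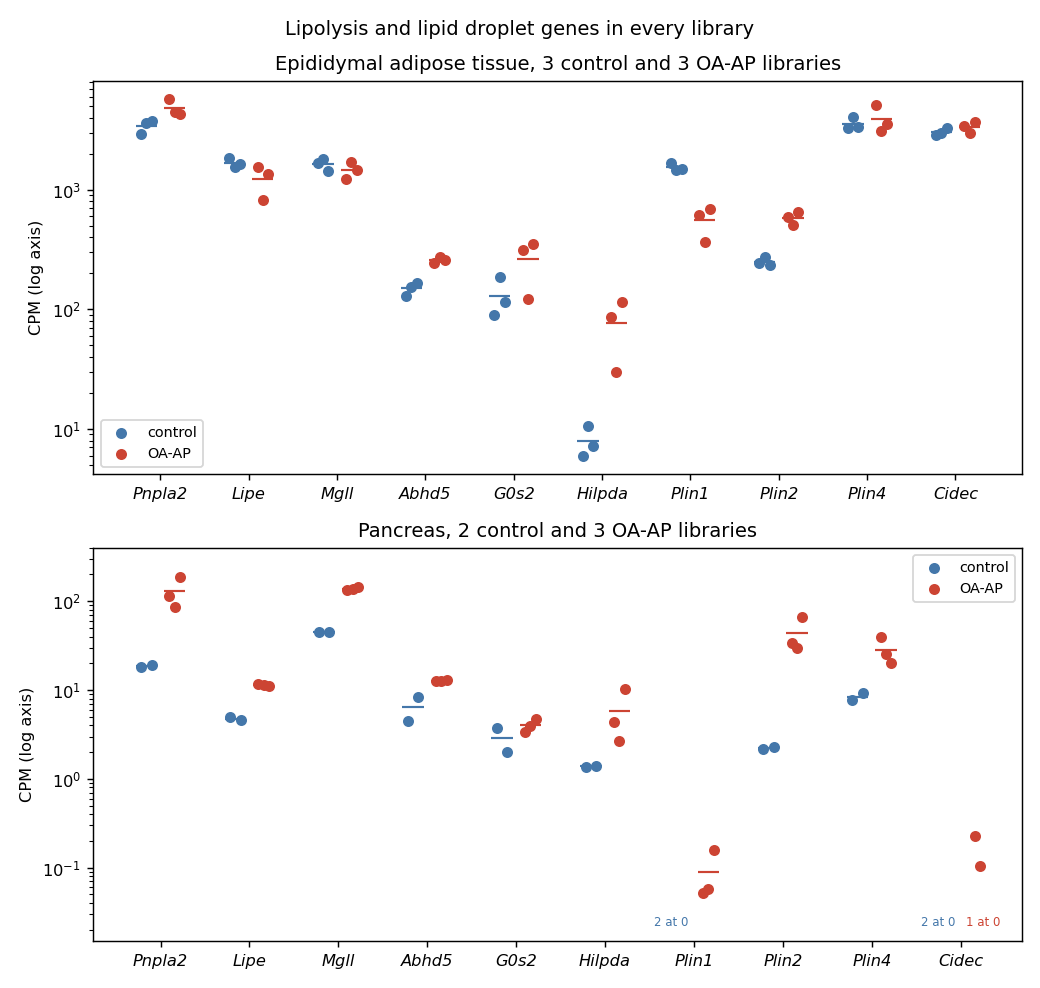
CPM of each gene (log axis) in every library of adipose tissue (top) and pancreas (bottom), control in blue and OA-AP in red, with a line at the group mean where every library is above 0. In adipose tissue Hilpda, Plin2, Abhd5 and Pnpla2 lie higher and Plin1 lower in all 3 OA-AP libraries, of which Pnpla2 was not called. In the pancreas 7 genes lie higher in all 3 OA-AP libraries while Plin1 and Cidec stay near 0.

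Pnpla2 was abundant in adipose tissue, with 2906, 3578 and 3775 CPM in the controls and 5736, 4421 and 4255 CPM in the OA-AP libraries. The groups did not overlap, as was the case for 5 of the 10 members and for 52.4% of all tested genes. Its fold change of 1.40 (log2 0.49, SE 0.19) missed both thresholds, with an edgeR adjusted p of 0.0761. Lipe measured 1854, 1540 and 1629 CPM in controls and 1544, 818 and 1349 CPM in OA-AP, where library 2 was the lowest and library 1 lay within the control range. The log2 fold change was -0.44 (SE 0.24, edgeR adjusted p = 0.188). Mgll measured 1657, 1810 and 1423 CPM in controls and 1221, 1711 and 1462 CPM in OA-AP, with overlapping groups. Its log2 fold change was -0.15 (SE 0.17, edgeR adjusted p = 0.513).

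The coactivator and both inhibitors had higher means in OA-AP adipose tissue, and for Abhd5 and Hilpda the difference passed the test. Abhd5 measured 129, 155 and 167 CPM in controls and 242, 276 and 261 CPM in OA-AP. Every OA-AP library lay above every control, and the rise was 1.73-fold (log2 0.79, SE 0.13, edgeR adjusted p = 0.0037). Hilpda measured 5.90, 10.6 and 7.18 CPM in controls and 85.9, 30.1 and 116 CPM in OA-AP. The OA-AP libraries were all above the controls but varied among themselves, with library 2 the lowest, and the rise was 9.83-fold (log2 3.30, SE 0.51, edgeR adjusted p = 0.0043). G0s2 measured 89.6, 186 and 115 CPM in controls and 312, 122 and 349 CPM in OA-AP. Its groups overlapped because OA-AP library 2 lay below control library 2, and the log2 fold change of 1.00 (SE 0.43) was not called (edgeR adjusted p = 0.113). Without OA-AP library 2 the log2 fold change of G0s2 was 1.35 (edgeR adjusted p = 0.0183), and DESeq2 on all libraries gave an adjusted p of 0.0267.

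The droplet coat genes moved in opposite directions in adipose tissue. Plin1 measured 1659, 1471 and 1478 CPM in controls and 609, 368 and 683 CPM in OA-AP. All OA-AP libraries lay below all controls, and Plin1 fell 2.78-fold (log2 -1.47, SE 0.23, edgeR adjusted p = 0.0038). Plin2 measured 244, 272 and 235 CPM in controls and 590, 505 and 650 CPM in OA-AP. These groups were also apart, and the rise was 2.33-fold (log2 1.22, SE 0.13, edgeR adjusted p = 0.0012). Plin4 measured 3307, 4054 and 3357 CPM in controls and 5102, 3074 and 3540 CPM in OA-AP, and Cidec measured 2863, 2958 and 3251 CPM in controls and 3403, 2972 and 3662 CPM in OA-AP. For both genes the groups overlapped and the test was not passed, with log2 fold changes of 0.13 (SE 0.22, edgeR adjusted p = 0.674) for Plin4 and 0.15 (SE 0.15, edgeR adjusted p = 0.472) for Cidec. The signs of these small values changed with library totals as the scaling, to -0.03 for Plin4 and -0.0067 for Cidec.

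Markers of other cells moved in the same libraries. Of the 11 adipocyte markers 6 fell and 1, Lep, rose, and their summed level was 45713 to 48502 CPM in controls and 34016 to 40024 CPM in OA-AP. Neutrophil markers rose for 6 of the 7 tested of 8 listed, with summed levels of 17.4 to 36.1 CPM in controls and 187 to 210.3 CPM in OA-AP. Macrophage markers were mixed, with 3 of 9 higher and 1 lower, and lipid-associated macrophage markers rose for 1 of 4. Lymphocyte markers fell for 4 of 4, with a summed level of 33.3 CPM in control library 2 against 5.09 and 9.91 CPM in the other controls. Fibroblast progenitor markers fell for 3 of 5, and of the 3 tested brown and beige adipocyte markers 1 rose and 1 fell. None of 5 endothelial and 3 mesothelial markers was called. The part of these cells in the changes of the members was not tested. The 4 calls in adipose tissue held without control library 2, with log2 fold changes of 3.56 for Hilpda, 1.29 for Plin2, 0.82 for Abhd5 and -1.5 for Plin1.

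Measured against the adipocyte markers in the same library, 8 of the 10 members did not overlap between the groups, against 65.2% of all tested genes. The mean log2 CPM of the markers was lower in OA-AP by 0.55 (10.40 ± 0.06 in controls and 9.85 ± 0.09 in OA-AP, SD, n = 3 each). Relative to it, Hilpda was higher by 3.67, Plin2 by 1.77, G0s2 by 1.49, Abhd5 by 1.35, Pnpla2 by 1.04, Cidec by 0.70 and Plin4 by 0.65 on the log2 scale. Plin1 differed by -0.97 on this scale. Of the markers themselves Slc2a4, Cebpa, Adrb3, Cfd and Aqp7 fell too, by log2 fold changes of -1.44, -1.30, -1.27, -1.22 and -1.16 in edgeR. The marker Lep rose, by a log2 fold change of 2.38 in edgeR. This raised the marker mean in OA-AP and made each relative difference lower than it would be without Lep. For the 8 members whose groups were apart the exact permutation p was 0.1, the smallest that 3 against 3 libraries allow, and 0.125 adjusted over the 10 members. Lipe and Mgll overlapped, with differences of 0.07 and 0.39 (exact permutation p = 0.9 and 0.2).

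In the pancreas 7 of the 8 members that passed the filter on low counts rose and none fell, against 29.8% of 12884 tested genes called in either direction and 16.2% called higher. Plin2 and Pnpla2 had the largest folds, followed by Hilpda, Plin4, Mgll, Lipe and Abhd5. The 8 tested members had a median log2 fold change of 1.69, and all tested genes one of 0.04. Together the 10 members took 0.00667% ± 0.000411 of the total counts in controls (SD, n = 2) and 0.0452% ± 0.00662 in OA-AP (SD, n = 3). In adipose tissue these shares were 1.61% ± 0.0672 and 1.56% ± 0.179 (SD, n = 3 each).

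The lipase genes all rose in the pancreas. Pnpla2 measured 18.0 and 19.2 CPM in controls and 114, 86.7 and 190 CPM in OA-AP. All OA-AP libraries lay above both controls, as did those of the other called genes, and the rise was 6.98-fold (log2 2.80, SE 0.36, edgeR adjusted p = 0.0019). Groups did not overlap for 62.3% of all tested genes in this tissue. Mgll measured 45.4 and 44.5 CPM in controls and 134, 136 and 145 CPM in OA-AP. Its libraries were close within each group, and the rise was 3.08-fold (log2 1.62, SE 0.13, edgeR adjusted p = 0.00017). Lipe measured 4.98 and 4.59 CPM in controls and 11.7, 11.4 and 11.2 CPM in OA-AP, a rise of 2.38-fold (log2 1.25, SE 0.18, edgeR adjusted p = 0.0017) at a low level of 46 to 222 counts per library.

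The regulators of the first lipase differed among themselves in the pancreas. Abhd5 measured 4.46 and 8.28 CPM in controls and 12.8 CPM in each of the 3 OA-AP libraries. It rose 2.02-fold (log2 1.01, SE 0.25, edgeR adjusted p = 0.0181), and the controls were farther from each other than the OA-AP libraries were. Without control library 1, which had the lower value, the log2 fold change was 0.63 and the call was lost (edgeR adjusted p = 0.104). It was also lost without OA-AP library 1, at a log2 fold change of 1.01 (edgeR adjusted p = 0.0611). Hilpda measured 1.37 and 1.40 CPM in controls and 4.41, 2.69 and 10.1 CPM in OA-AP, which correspond to 14 to 16 counts and 47 to 194 counts per library. It rose 4.14-fold (log2 2.05, SE 0.62, edgeR adjusted p = 0.0409), a call that was lost without either control library (edgeR adjusted p = 0.206 and 0.199) and without OA-AP library 1 (0.0600). G0s2 measured 3.78 and 1.99 CPM in controls and 3.41, 3.95 and 4.71 CPM in OA-AP. The groups overlapped and the log2 fold change of 0.47 (SE 0.34) was not called (edgeR adjusted p = 0.322).

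Of the coat genes, Plin2 and Plin4 rose in the pancreas. Plin2 measured 2.15 and 2.29 CPM in controls and 34.2, 29.8 and 66.7 CPM in OA-AP. This was the largest fold of the members, 19.6-fold (log2 4.29, SE 0.47, edgeR adjusted p = 0.0013), from 23 to 25 counts per control library to 521 to 1276 counts per OA-AP library. Plin4 measured 7.72 and 9.17 CPM in controls and 39.7, 25.5 and 20.1 CPM in OA-AP and rose 3.37-fold (log2 1.75, SE 0.31, edgeR adjusted p = 0.0051). The Plin4 call was lost without control library 1 or 2 (edgeR adjusted p = 0.0656 and 0.0523), while its log2 fold change stayed at 1.64 and 1.88. Plin1 had 0 counts in both controls, which allows up to 0.257 and 0.299 CPM, and 1, 1 and 3 counts in OA-AP. Cidec had 0 counts in both controls and 0, 4 and 2 counts in OA-AP. Neither gene was tested in this tissue, and their counts are too few for a fold change.

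Markers of adipocytes and of other cells were read in the same pancreas libraries. Of the 11 adipocyte markers Adipoq, Retn and Lep had at most 3 counts in every pancreas library, and Cfd was at most 0.210 CPM. Only 4 of the 11 had enough counts to be tested, of which none rose and 1, Lpl, fell. Fabp4 averaged 30.8 CPM in controls and 47.9 CPM in OA-AP, which was not called (log2 0.64, edgeR adjusted p = 0.208). The summed level of the 11 was 127 to 145 CPM in controls and 90.2 to 114.5 CPM in OA-AP. Acinar markers fell for 7 of 10, from a summed 623563 to 731589 CPM in controls to 277738 to 357735 CPM in OA-AP. As a share of total counts they took 49.4% and 51.0% in controls and 36.6% to 39.7% in OA-AP. With library totals alone 5 of the 10 were called lower. By edgeR none of the 9 macrophage markers rose and 1 fell, and none of the 7 tested neutrophil markers was called, although their median log2 fold change was 5.19. DESeq2 called 5 of these 7 neutrophil markers and 1 macrophage marker higher. Endothelial markers fell for 2 of 5 and fibroblast progenitor markers for 1 of 5, of the 2 tested brown and beige adipocyte markers 1 rose and 1 fell, and none of the 3 mesothelial or the 3 tested lipid-associated macrophage markers was called. The part of adipocytes or of any of these other cells in the rise was not tested. OA-AP library 3, with the highest neutrophil markers, also had the highest Pnpla2, Mgll, Plin2 and Hilpda. Without it the rise was 5.20-fold for Pnpla2 (log2 2.38, edgeR adjusted p = 1.03e-08), 13.9-fold for Plin2 (log2 3.80, edgeR adjusted p = 1.25e-09) and 2.48-fold for Hilpda (log2 1.31, edgeR adjusted p = 0.0114), and all 7 genes were still called.

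The called members kept their direction under each scaling. With library totals alone the median of all tested genes in the pancreas shifted by 0.71 on the log2 scale, and the 7 called members were also called higher under that scaling. In adipose tissue the shift was -0.15, and the 4 calls held. The share of calls over all genes that were higher moved from 54.5% to 92.0% in the pancreas and from 48.1% to 32.1% in adipose tissue. Under that scaling G0s2 was called higher in the pancreas as well (log2 1.15, edgeR adjusted p = 0.0260), and 2 adipocyte and 3 macrophage markers were called higher there.

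The next question was whether the responses differed between the tissues. Of the 10 members 5 had a different response, against 20.6% of 17046 genes, and in all 5 the adipose response was the lower one (10.2% of genes were called in this direction). The difference of the log2 fold changes, adipose minus pancreas, was -3.09 for Plin2 (SE 0.44, edgeR adjusted p = 0.00077) and -2.33 for Pnpla2 (SE 0.43, edgeR adjusted p = 0.0030). It was -1.78 for Mgll (SE 0.24, edgeR adjusted p = 0.00045), -1.71 for Lipe (SE 0.31, edgeR adjusted p = 0.0028) and -1.64 for Plin4 (SE 0.42, edgeR adjusted p = 0.0158). For the 3 lipases and 2 coat genes the fold change was therefore larger in the pancreas than in adipose tissue. Without pancreas OA-AP library 3 the difference was -2.64 for Plin2 and -1.95 for Pnpla2. The Plin4 difference was no longer called without pancreas control library 1 or 2 (edgeR adjusted p = 0.0886 and 0.0607).

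For the regulators of the first lipase no difference between the tissues was called. The difference was -0.24 for Abhd5 (SE 0.27, edgeR adjusted p = 0.589), 0.53 for G0s2 (SE 0.69, edgeR adjusted p = 0.654) and 1.22 for Hilpda (SE 1.03, edgeR adjusted p = 0.456). The standard error was widest for Hilpda. With library totals alone the Abhd5 difference was -1.10 and was called (edgeR adjusted p = 0.0056). Plin1 and Cidec had too few pancreas counts for this comparison. The plot of responses by tissue shows these values.

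**Figure D2:**
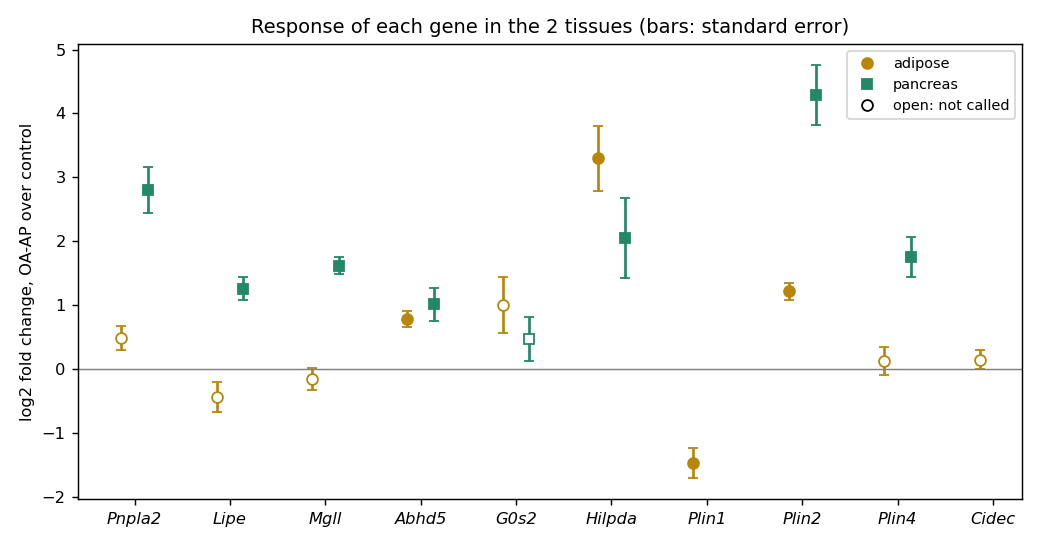
Log2 fold change of OA-AP over control from edgeR, with its standard error, for each gene in adipose tissue (circles) and pancreas (squares). Filled symbols passed the test, open symbols did not, and Plin1 and Cidec were not tested in the pancreas. Plin2 and Pnpla2 show the widest distance between the tissues, and Plin1 is the only gene below 0 that passed.

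Control levels set the starting point. On the joint scaling of both tissues 9 of the 10 members were called higher in control adipose tissue than in control pancreas. Over all 17046 genes 55.5% were called in either direction, 29.4% higher and 26% lower. Plin1 and Cidec had 0 counts in both pancreas controls and passed the filter on low counts through adipose tissue alone. Their 2 calls followed from that filter and are not to be set against these shares, which leaves 7 members. The difference was 108-fold for Plin4 (log2 6.75, SE 0.42), 88.9-fold for Lipe (log2 6.47, SE 0.30), 46.7-fold for Pnpla2 (log2 5.55, SE 0.41) and 28.7-fold for Plin2 (log2 4.84, SE 0.38). It was smaller for G0s2 at 11.3-fold, Mgll at 9.23-fold and Abhd5 at 6.05-fold. The edgeR adjusted p of these 7 was at most 0.00036. Over the settings tried the log2 difference ranged from 6.66 to 9.22 for Plin4 and from 6.43 to 8.94 for Lipe. For Pnpla2 it ranged from 5.44 to 8.02 and for Plin2 from 4.73 to 7.31. Plin1 was at least 1319-fold and Cidec at least 2597-fold higher in adipose tissue, against 3 counts in a pancreas library. Hilpda was the exception, with a log2 difference of 0.53 (SE 0.84, edgeR adjusted p = 0.605), although it was called with library totals alone (log2 2.99, edgeR adjusted p = 0.0046), a scaling that moved the median of all genes by 2.45.

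Per gene length, the genes could also be ranked against each other. The length used counts the exonic bases of all annotated transcripts of a gene, so the ranks are not levels per transcript. In control adipose tissue Cidec was the highest at 867 ± 58.2 CPM per kilobase (SD, n = 3, joint scaling), followed by Pnpla2 at 603 ± 79.9 and Plin4 at 329 ± 37.9. Plin1 (176 ± 12.4), Mgll (171 ± 20.2) and Lipe (151 ± 14.9) followed, and the ranges of neighbours among these 3 overlapped. G0s2 (79.5 ± 30.4), Plin2 (37.9 ± 2.86), Abhd5 (13.4 ± 1.72) and Hilpda (3.80 ± 1.15) came last, with ranges apart from their neighbours. In OA-AP adipose tissue Plin1 (63.9 ± 18.4) ranked below Plin2 (89.0 ± 10.3) in the means, with overlapping ranges, and Hilpda at 37.5 ± 20.9 ranked above Abhd5 at 23.5 ± 1.87, again with overlap.

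In control pancreas the highest level per length was that of Mgll, 18.5 ± 0.510 CPM per kilobase (SD, n = 2), ahead of Pnpla2 at 12.9 ± 0.431 and G0s2 at 6.95 ± 3.12. Plin2 was the lowest of the genes with counts there, at 1.32 ± 0.0451. In OA-AP pancreas Pnpla2 reached 91.8 ± 38.1 and overlapped with Mgll at 58.0 ± 2.75 (SD, n = 3 each). Plin2 was the third at 26.5 ± 12.3, overlapping with Hilpda at 11.1 ± 7.59 but apart from Mgll. The Plin2 levels of the 3 OA-AP pancreas libraries were 20.7, 18.05 and 40.6 CPM per kilobase, and those of the control adipose libraries were 35.6 to 41.1. Of the OA-AP pancreas libraries only library 3, with the highest neutrophil markers, was within that range. This overlap rests on the joint scaling, whose factor was 0.52 for that library and 1.97 to 1.98 for the adipose controls. In counts, Plin2 had 1276 of 17238919 in that library, against 6408 of 22576100 in adipose control library 2.

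Ratios between members within a library do not depend on how libraries are scaled. Among the coat genes of adipose tissue, Plin2 per length was 0.194, 0.244 and 0.210 of Plin1 in controls and 1.28, 1.82 and 1.26 of it in OA-AP. Per length, Plin1 thus exceeded Plin2 in every control library and Plin2 exceeded Plin1 in every OA-AP library, a 6.65-fold shift. The order in OA-AP depended on the gene lengths used, 4649 bases for Plin1 and 3512 for Plin2. In counts, Plin2 was below Plin1 in OA-AP library 1 (11378 and 11744) and library 3 (12875 and 13532). Plin4 rose from 1.87 to 5.74 and Cidec from 4.93 to 15.6 times Plin1 (geometric means). Plin1 itself was 13.2 times Abhd5 in controls and 2.64 times in OA-AP, a 4.98-fold shift. For these 4 ratios the groups were apart, with an exact permutation p of 0.1, the smallest possible, and 0.15 adjusted over 9 ratios. The same held for 83.3% of all tested genes set over Plin1 and for 74.7% set over Abhd5, and Plin1 and Abhd5 are themselves DEGs.

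Ratios of lipases and regulators were taken within each library, and their difference between the tissues was not tested. In adipose tissue Lipe was 0.327, 0.221 and 0.221 of Pnpla2 in controls and 0.138, 0.0949 and 0.163 of it in OA-AP. These groups were apart, as were those of Hilpda over Pnpla2 (0.00616 to 0.0385, geometric means), each with an exact permutation p of 0.1, and 55% of all tested genes set over Pnpla2 were apart too. G0s2 over Pnpla2, Abhd5 over Pnpla2 and Mgll over Lipe overlapped between the groups in adipose tissue (exact permutation p = 0.6, 0.4 and 0.7). In the pancreas G0s2 was 0.726 and 0.359 of Pnpla2 in controls and 0.104, 0.158 and 0.0860 of it in OA-AP, a 4.55-fold lower ratio. Abhd5 over Pnpla2 was 3.15-fold lower, Lipe over Pnpla2 2.77-fold lower and Hilpda over Pnpla2 1.85-fold lower. All 4 ratios were apart, but so were 96% of all tested genes set over Pnpla2 in this tissue. Mgll over Lipe changed from 10.9 to 14.02, and 84.1% of genes set over Lipe were apart. The exact permutation p was 0.1 for these pancreas ratios, the smallest possible with 2 against 3 libraries, other than 0.2 for Hilpda over Pnpla2.

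**Figure D3:**
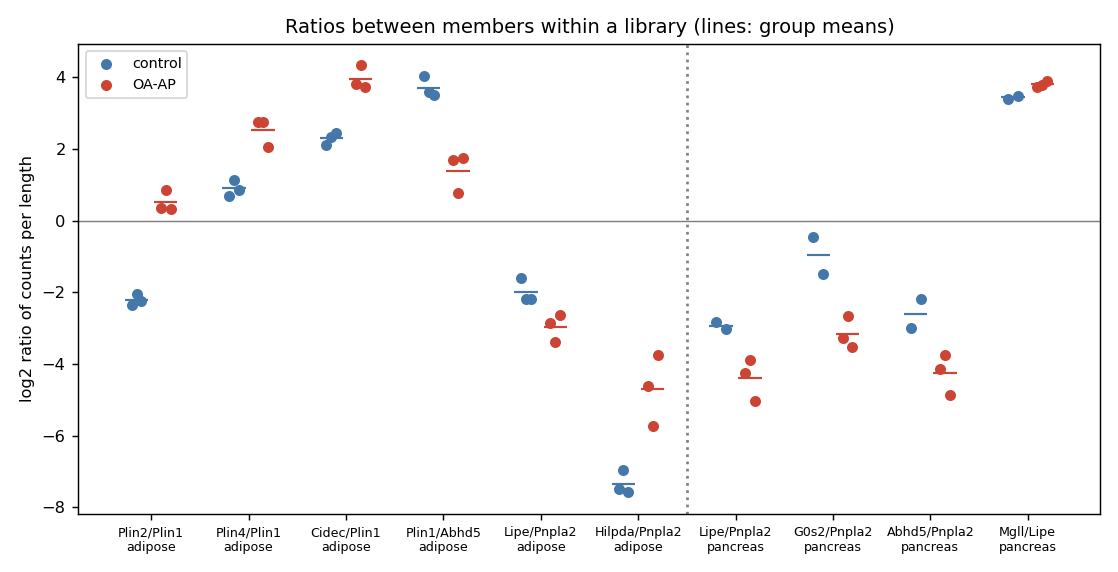
Log2 ratio of the counts per length of pairs of members in each library, adipose tissue to the left and pancreas to the right of the dotted line, control in blue and OA-AP in red with lines at the group means. Plin2 over Plin1 crosses 0, from below in controls to above in OA-AP adipose tissue, and the pancreas ratios over Pnpla2 are lower in OA-AP. The crossing depends on the gene lengths used.

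Around the 10 members, 47 further genes of the pathway were counted in 5 lists. In adipose tissue 45 were tested, of which 2 rose and 13 fell, with a median log2 fold change of -0.46. In the pancreas 36 were tested, of which 8 rose and 4 fell, with a median of 0.32. Of the 8 rises in the pancreas, 4 were of the list of other droplet proteins. The background shares over all tested genes were 12.1% higher and 13% lower in adipose tissue and 16.2% higher and 13.5% lower in the pancreas.

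Triglyceride synthesis was the list with most falls in adipose tissue, 7 of 9 genes, and none rose (median log2 fold change -1.09). The synthesis enzymes Agpat2 (log2 -1.74, edgeR adjusted p = 0.0054), Dgat1 (log2 -1.62, adjusted p = 0.0070), Lpin1 (log2 -1.09, adjusted p = 0.0068) and Gpat4 (log2 -0.76, adjusted p = 0.0037) were among them. In the pancreas 1 of 7 tested was called, Gpat4, which rose (log2 0.92, edgeR adjusted p = 0.0030). Gpat4 encodes an enzyme of the first step of glycerolipid synthesis, and it fell in 1 tissue and rose in the other.

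Among the other droplet proteins, Plin5, which couples droplets to mitochondria, rose in both tissues, by a log2 fold change of 0.65 in adipose tissue (edgeR adjusted p = 0.0136) and of 3.28 in the pancreas (edgeR adjusted p = 0.00082). With library totals alone the adipose value was 0.49, under the fold threshold. In adipose tissue 1 further gene of the 11 tested, Tmem159, fell (log2 -1.08, edgeR adjusted p = 0.0024). In the pancreas 4 of 10 tested rose and 1 fell. Fitm2, which promotes droplet formation at the endoplasmic reticulum, rose (log2 2.11, edgeR adjusted p = 0.00022), as did Faf2 (log2 0.73, adjusted p = 0.0090), and the seipin gene Bscl2 fell (log2 -1.47, adjusted p = 0.00061).

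Of the other lipases, Pnpla3 fell in adipose tissue (log2 -2.93, edgeR adjusted p = 0.0072) as the only call among 7 tested, and in the pancreas it had at most 3 counts in any library. Abhd6, a monoglyceride lipase, rose in the pancreas (log2 1.28, edgeR adjusted p = 0.0024), and the carboxylesterase Ces1d fell (log2 -1.38, adjusted p = 0.0033). Of the genes of hormonal control, adipose tissue had 2 falls among 13. These were Pde3b, the phosphodiesterase through which insulin restrains lipolysis (log2 -1.5, edgeR adjusted p = 0.00056), and Adrb3, the beta-3 adrenergic receptor of adipocytes (log2 -1.27, adjusted p = 0.0069). In the pancreas Insr, the insulin receptor (log2 1.19, edgeR adjusted p = 0.00087), and Npr3, the natriuretic peptide clearance receptor (log2 3.21, adjusted p = 0.0184), rose. There Prkaca, a catalytic subunit of protein kinase A (log2 -1.06, adjusted p = 0.0016), and Adrb1, the beta-1 adrenergic receptor (log2 -2.53, adjusted p = 0.0298), fell. With library totals alone neither was called, at log2 -0.35 (edgeR adjusted p = 0.131) and -1.83 (edgeR adjusted p = 0.0674).

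Genes that handle the products of lipolysis were split in adipose tissue. Aqp7, the glycerol channel of adipocytes (log2 -1.16, edgeR adjusted p = 0.00087), and Acsl1, which activates fatty acids (log2 -1.12, adjusted p = 0.0212), fell, while Gk, the glycerol kinase gene, rose (log2 1.05, adjusted p = 0.0107). None of the 4 tested in the pancreas was called by edgeR.

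Across the 11 libraries of both tissues, the 3 genes of 17045 most like each member were taken from Pearson's r of log2 CPM. For Lipe these were 2610016A17Rik (r = 0.996), Plin1 (0.996) and Ywhab (0.995), and for Plin1 they were 2610016A17Rik (0.996), Hoxc6 (0.996) and Lipe (0.996), so these members named each other. For Pnpla2 they were Hoxb8 (0.995), Myl12a (0.991) and Mob1a (0.990), and for Mgll they were Ccser2 (0.992), Tmem184b (0.991) and Bnip3 (0.989). Abhd5 was closest to Tubb2a (0.992), Sema3g (0.986) and Adgra2 (0.985), and G0s2 to Spsb1 (0.994), Ccr2 (0.990) and Dusp10 (0.989). Among the other coat genes, Plin2 was close to Relt (0.993) and Smim15 (0.989), Plin4 was closest to Prr16 (0.997), Ctbs (0.994) and 6530402F18Rik (0.994), and Cidec to Hsd3b7 (0.998), Hgs (0.998) and Slc7a10 (0.995). Hilpda had the weakest likeness, with Pwp2 (0.966), the chemokine gene Cxcl1 (0.966) and Cct8 (0.964). All points share the contrast between the tissues, so these values describe the pattern over 4 groups, with no test.

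Exons of 4 members overlap genes on the opposite strand, and the library kit does not mark strand. In GENCODE M21 this concerned 16.0% of the exonic bases of Abhd5 (A730085K08Rik), 15.6% of Lipe (4732471J01Rik), 3.3% of Mgll (Gm26588) and 0.3% of Plin4 (Hdgfl2). The partner of Abhd5 had at most 0.424 CPM and that of Lipe at most 4.91 CPM in any library. The partner of Mgll reached 8.07 CPM in OA-AP pancreas. That of Plin4 measured 21.9 to 35.9 CPM in the pancreas, where Plin4 itself measured 7.72 to 39.7 CPM, and it was not matched by symbol in the adipose table. Plin1, Plin2, Pnpla2, Cidec, G0s2 and Hilpda shared no exonic base with another gene.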

How the data were processed

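RNA sequencing counts of 11 libraries were analysed. The authors trimmed reads with Trim Galore 0.6.6, checked them with fastp 0.20.1, aligned them to GRCm38 by STAR and assigned them to genes by featureCounts 2.0.1, and the deposited values are whole-number counts per gene with no normalization. The annotation release and strand setting are not given in the sources used here. The members and gene lists were chosen with earlier results of these data known. All 10 members, the counts of every list, up to 4 called genes with the smallest p of each pathway list and tissue, and the 3 most alike genes per member were the genes to be named. Of the alike genes 1 is not reported here. Older symbols of 3 listed genes in the adipose table were matched by gene ID.

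Low genes were removed with filterByExpr, TMM scaling was applied, and the tissues were fitted separately in edgeR 4.0.16 (R 4.3.3, quasi-likelihood, robust). A joint fit of 11 libraries gave the tissue by condition term and the contrast of the control tissues. Adjusted p-values are Benjamini-Hochberg values over all tested genes, a call needed an adjusted p below 0.05 with a change of 1.5-fold or more, and standard errors are the log2 fold change over the square root of F. Log2 CPM used a prior count of 2. Ratios and marker-relative values were compared with exact two-sided permutation tests. A count of 0 was taken to allow 3 counts, for counting error only. Nothing in the labels says that replicates came from separate mice, so p-values measure only the spread between these samples, which may be technical. The scripts were tested on simulated data. Alternatives were DESeq2 1.42.0, other scalings, filters, thresholds, a replicate block and leaving out each library.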

Additional observations from a re-analysis of the deposited data

Results flagged for a closer look

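The response to OA-AP differed between the tissues for 5 of the 10 members, by the edgeR test of the tissue by condition term over all 11 libraries. The adipose log2 fold change minus that of the pancreas was -3.09 for Plin2, -2.33 for Pnpla2, -1.78 for Mgll, -1.71 for Lipe and -1.64 for Plin4. Plin2 rose in both tissues and more in the pancreas. Pnpla2, Mgll, Lipe and Plin4 rose in the pancreas and were not called in adipose tissue. For Plin4 neither the pancreas call nor the difference between the tissues held without pancreas control library 1 or 2. The Plin4 difference was then -1.53 and -1.75. No group had the 4 or more libraries needed to test single libraries as outliers.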

How the results depend on the processing

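The count of 4 called members in adipose tissue (3 higher, 1 lower) was within 1.5 times under every alternative. With a fold change of at least 2 it was 3 (2 higher), since Abhd5, at 1.73-fold, was lost, and the 4 calls held under the other alternatives. In the pancreas the count of 7 was 4 to 7 when single libraries were left out, with the same range for those called higher. It was lowest without control library 1, where Abhd5, Hilpda and Plin4 were lost, with the remaining control library assumed to vary like the other group. The count of members whose response differed between tissues was 5, and 8 with library totals alone, of which 8 were lower in adipose tissue. Plin1 and Cidec, with few pancreas counts, and Abhd5 were the additions. Signs turned for values that were not called. With library totals alone they were -0.029 for Plin4 and -0.0067 for Cidec in adipose tissue and -0.30 for the G0s2 difference between tissues, and with Adipoq alone as the marker -0.22 for Lipe in adipose tissue. Leaving out single libraries gave -0.10 to 0.28 for Plin4 in adipose tissue, -0.72 to 0.14 for Abhd5 and -0.033 to 0.91 for G0s2 as differences between tissues, -0.070 to 0.63 for Mgll over Lipe in adipose tissue, and -0.067 to 0.30 for Lipe relative to the adipocyte markers. With the replicate block 4 members were called in adipose tissue, 7 in the pancreas and 5 for the difference between tissues, as without it. Between control tissues 9 were called with and without it, Plin1 and Cidec among them. Same-numbered control and OA-AP libraries correlated by -0.16 to 0.06 in adipose tissue and -0.04 to 0.0015 in the pancreas. Those with different numbers correlated by -0.25 to 0.29 and by -0.03 to 0.04. With 2 or 3 libraries per group these values cannot decide whether same-numbered libraries share more than a number. An added block on the number within condition across tissues, chosen after seeing the data, gave 5 and 9. The low pancreas counts of Hilpda, Lipe and Abhd5 limit their precision.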
